A study of Homo sapiens with 6 samples.

Results

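HepG2 cells, a human liver cancer line often used as a hepatocyte model, were studied here for 5 genes of nitrogen disposal and amino acid breakdown. The genes are CPS1, NAGS, HAL, TAT and PRODH2, taken by name from the authors' deposited table of called genes, and all 5 of 5 had a row among its 1998 genes. One group received an siRNA against H19 (siH19, 3 libraries), a long noncoding RNA of an imprinted locus, and the other a control siRNA (siCon, 3 libraries). Both groups were the same HepG2 line, grown in the same medium and harvested 48 h after transfection, with no further genotype or agent in the labels. The labels do not say how many siRNA sequences were used, nor whether replicate libraries derive from different cultures, and the authors' errors may therefore hold technical spread alone. The level of H19 itself was not analysed here, and siH19 stands as the submitters' label with no check of the knockdown. The comparison asks which transcripts differ in liver cells when H19 is targeted.

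The urea cycle turns ammonia, released when amino acids are broken down, into urea, and is a function of hepatocytes. CPS1, carbamoyl phosphate synthetase 1, is the mitochondrial enzyme that takes ammonia into the cycle, and it works only when N-acetylglutamate is bound. NAGS, N-acetylglutamate synthase, makes that activator from glutamate and acetyl-CoA. The other genes code for enzymes that start the breakdown of single amino acids. HAL, histidase, removes ammonia from histidine. TAT, tyrosine aminotransferase, takes the amino group from tyrosine. PRODH2 oxidises hydroxyproline, an amino acid of collagen, on a route that leads to glyoxylate.

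Annotated start regions of the members are shown first. They set the sequence at an annotated start of the gene that rose beside those of genes that fell. The RefSeq promoter table of build GRCh38.p14 covers 250 bases before to 50 bases after an annotated start, and it held 4 of the 5 members, with 3 starts for CPS1 and 1 each for NAGS, HAL and PRODH2. TAT had no entry. Which of the 3 CPS1 starts these cells used is not known from the data. In the lines that follow, capitals mark matches to the motifs searched, and a line with no capitals held none of them. The NAGS window lies at chr17:44004372-44004671 on the plus strand, HAL at chr12:95996295-95996594 on the minus strand and PRODH2 at chr19:35812796-35813095 on the minus strand, and the CPS1 window shown, at chr2:210477435-210477734 on the plus strand, is the one farthest upstream.
CPS1: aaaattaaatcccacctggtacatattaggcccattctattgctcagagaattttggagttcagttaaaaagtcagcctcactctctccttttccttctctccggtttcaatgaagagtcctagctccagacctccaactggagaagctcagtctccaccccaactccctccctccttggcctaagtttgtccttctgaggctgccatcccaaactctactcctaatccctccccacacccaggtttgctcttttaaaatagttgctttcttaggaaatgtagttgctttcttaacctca
NAGS: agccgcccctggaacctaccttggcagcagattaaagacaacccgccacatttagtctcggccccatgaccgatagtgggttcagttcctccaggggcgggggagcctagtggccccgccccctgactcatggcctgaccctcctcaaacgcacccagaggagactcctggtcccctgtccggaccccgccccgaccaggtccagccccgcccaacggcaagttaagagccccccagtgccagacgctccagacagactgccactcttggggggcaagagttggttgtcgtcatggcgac
HAL: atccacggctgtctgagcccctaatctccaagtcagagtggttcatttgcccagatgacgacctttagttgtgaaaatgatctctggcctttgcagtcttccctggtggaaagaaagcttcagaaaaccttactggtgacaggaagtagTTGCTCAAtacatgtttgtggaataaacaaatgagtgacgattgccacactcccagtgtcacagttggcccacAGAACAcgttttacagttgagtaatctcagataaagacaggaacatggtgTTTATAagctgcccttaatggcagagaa
PRODH2: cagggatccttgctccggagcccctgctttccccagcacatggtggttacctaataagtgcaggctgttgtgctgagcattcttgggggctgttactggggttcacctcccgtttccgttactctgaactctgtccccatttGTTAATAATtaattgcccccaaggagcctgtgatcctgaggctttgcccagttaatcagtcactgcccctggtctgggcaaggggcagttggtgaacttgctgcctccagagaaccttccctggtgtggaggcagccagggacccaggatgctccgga

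NAGS had the window richest in CG dinucleotides of the 6, with 15 in 300 bases and 64.3% G or C, against 1 to 3 CG and 36.7% to 45.3% in the 3 CPS1 windows. HAL and PRODH2 each had 4, and the median over 35116 windows of the table was 14. Motifs were searched as exact letters on both strands. The HAL window held a C/EBP motif (TTGCNNAA) beginning 101 bases before the start, a glucocorticoid receptor core motif (TGTTCT, on the opposite strand) beginning 28 bases before it and, just after the start, the letters of a TATA box (TATAAA) on the opposite strand. In the PRODH2 window an HNF1 motif (GTTAATNAT) began 108 bases before the start, and this motif was held by 0.79% of all windows. The C/EBP motif was held by 10.46% of all windows, the receptor motif by 14.79% and the TATA letters by 11.53%. None of the 6 motifs searched was found in the NAGS window or in any CPS1 window, and the HNF4 motif CAAAGTCCA (0.38% of windows) and the cAMP response element TGACGTCA (1.85%) were found in no member. A match or its absence describes these letters in these windows only.

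CPS1 was higher in siH19 cells and the other 4 genes were lower. Of the 5 members 4 were lower, against 55.3% of all genes in the authors' deposited table. The deposited levels are normalized counts, 1 for each group, with the 3 libraries already merged. Counts on the linear scale were converted here from the deposited log2 values. Spread between libraries is seen only through the standard error (SE) that the authors gave for the log2 fold change, siH19 minus siCon. Since that table holds called genes only, with adjusted p under 0.05, every member had passed the authors' test by being there.

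CPS1 had a normalized count of 1031 in siH19 cells, against 671 in siCon cells, in the authors' deposited table. On the log2 scale the group values in the authors' deposited table were 10.01 in siH19 and 9.39 in siCon, a fold change of 0.61 ± 0.10 (SE) that is a 1.53-fold rise. Its adjusted p was written as 0 in the authors' deposited table, below the precision of the file. A fold change at least as large was given for 235 (26.3%) of the 893 genes that rose. The rise was thus 6.10 times its SE, and not among the largest by size.

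NAGS had a normalized count of 30.5 in siH19 cells, against 45.6 in siCon cells, in the authors' deposited table. Its log2 fold change there, -0.58 ± 0.21 (SE) in the authors' deposited table, is a 1.49-fold fall with an adjusted p of 0.0377. The enzyme that makes the CPS1 activator and CPS1 itself therefore differed in direction, while NAGS stood close to the authors' threshold.

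HAL showed the largest change of the members. In the authors' deposited table it had a normalized count of 24.9 in siH19 cells and 51.6 in siCon cells. This was a log2 fold change of -1.05 ± 0.21 (SE) in the authors' deposited table, a 2.07-fold fall, with an adjusted p of 1.60e-05. HAL ranked at 36 among the 1105 genes that fell, and so lay in the 3.3% with the largest falls.

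TAT had a normalized count of 76.1 in siH19 cells and 122 in siCon cells, with a log2 fold change of -0.68 ± 0.18 (SE) and an adjusted p of 0.00235, in the authors' deposited table. For PRODH2 the authors' deposited table gave 74.5 in siH19 cells and 115 in siCon cells, a log2 fold change of -0.62 ± 0.19 (SE) and an adjusted p of 0.0109. These 2 enzymes fell by almost the same amount, 1.60-fold and 1.54-fold. By size, 4 of the 5 members changed at least 1.5-fold, against 28.2% of all listed genes, and NAGS was just under. Listed genes within 1.5-fold of the mean count of NAGS or HAL had a median absolute log2 fold change of 0.71. The median was 0.62 around TAT and PRODH2 and 0.38 around CPS1. The share over all levels is therefore not a like comparison for the low-count members. By the stricter adjusted p threshold of 0.01, 3 of the 5 remained (CPS1, HAL and TAT), against 64.8% of all listed genes.

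**Figure D1:**
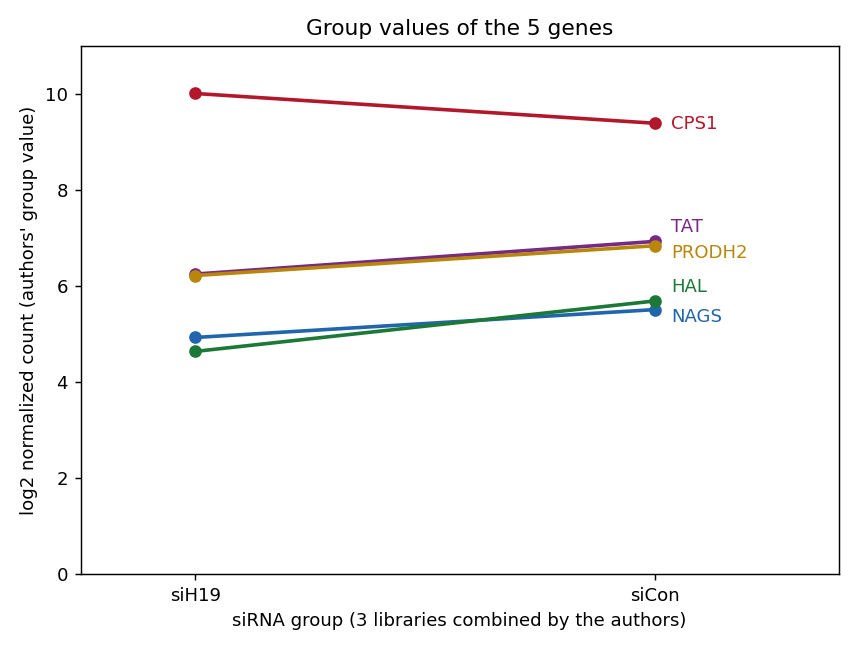
Log2 normalized count of each of the 5 genes (vertical axis) in siH19 and siCon cells (horizontal axis), with 1 point per group as combined by the authors from 3 libraries, and lines joining the points of a gene. CPS1 stands at 10.01 in siH19 and 9.39 in siCon, while the lines of NAGS, HAL, TAT and PRODH2 are lower on the siH19 side.

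CPS1 moved away from its activator enzyme and from the catabolic enzymes. The log2 fold change of CPS1 exceeded that of NAGS by 1.19, that of HAL by 1.66, that of TAT by 1.29 and that of PRODH2 by 1.23. If the errors of 2 genes were independent, which is not known for genes of the same libraries, the SE of these differences would be 0.23, 0.23, 0.21 and 0.21, and each difference would be at least 5.12 times its SE. The members were called genes chosen with their values known. Wide gaps between called genes of opposite direction follow from that choice, so these multiples are a description and not a test. Per kilobase of coding length, taken from GENCODE release 29 (4.518 kb for CPS1 and 1.602 kb for NAGS), the level of CPS1 was 12.0 times that of NAGS in siH19 cells and 5.2 times in siCon cells. On that same per-length scale CPS1 stood at 18.0 times HAL in siH19 cells and 5.7 times in siCon cells, at 4.1 times TAT in siH19 cells and 1.7 times in siCon cells, and at 4.9 times PRODH2 in siH19 cells and 2.1 times in siCon cells. These ratios describe transcripts, and the length the authors counted over is not known. By the length of the whole annotated transcript, an alternative chosen after seeing the data, CPS1 stood at 9.5 times TAT in siH19 cells and 3.8 times in siCon cells, and at 28.4 times HAL in siH19 cells and 8.9 times in siCon cells. The size of a ratio between genes thus depends on the length used, while its change between siH19 and siCon cells does not. That change restates the differences in log2 fold change given above, up to rounding.

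The 4 genes that fell were not told apart from one another by the size of their fall. The log2 fold changes of NAGS and HAL differed by 0.47, with an SE of 0.30 on the same assumption, and HAL differed from TAT by -0.37 and from PRODH2 by -0.43, each with an SE of 0.28. NAGS and PRODH2 differed by 0.04, with an SE of 0.28, and TAT and PRODH2 by -0.06, with an SE of 0.26. Differences within about 1.58 SE do not show that the genes fell alike. By level per coding kilobase, the order in siH19 cells was CPS1 (228), TAT (55.9), PRODH2 (46.4), NAGS (19) and HAL (12.7). In siCon cells it was CPS1 (148), TAT (89.5), PRODH2 (71.2), NAGS (28.4) and HAL (26.2), the same order. By transcript length PRODH2 (44.5) stood above TAT (19.1) in siH19 cells, and likewise in siCon cells (68.3 for PRODH2 and 30.6 for TAT), so the order of these genes depends on the length used. No error per gene level was given, so neighbours in this order, such as NAGS and HAL, were not separated by a test.

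Their low counts bear on the size of these falls. Of all listed genes, 3.6% had a lower mean count than NAGS (38.1) or HAL (38.3), and 10.8% a lower one than TAT (99.1), against 58.2% for CPS1 (850), by the mean counts in the authors' deposited table. Among the 83 other listed genes within 1.5-fold of the mean count of NAGS, the smallest absolute log2 fold change was 0.55, against 0.23 among the 498 within 1.5-fold of CPS1, so no gene near the level of NAGS with a smaller change than that had a row. In that group of 83 genes, 86.7% had an absolute fold change at least as large as NAGS and 4.8% at least as large as HAL. Around TAT the share was 38.2% of 173 genes, around PRODH2 52.5% of 160 and around CPS1 15.3%. Set beside genes of like level, HAL, CPS1 and TAT changed by more than most, NAGS by less than most, and PRODH2 lay near the middle. Counting error alone, if the normalized counts were close to reads per library, would give an SE of 0.203 for HAL and 0.195 for NAGS, close to the 0.21 in the authors' deposited table. For TAT it would give 0.122, against 0.18 in the same authors' deposited table. No deposited SE exceeded 0.22, although mean counts went down to 12.32. The SE and fold change of low-count genes may thus be held down by the authors' method, which was not tested.

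**Figure D2:**
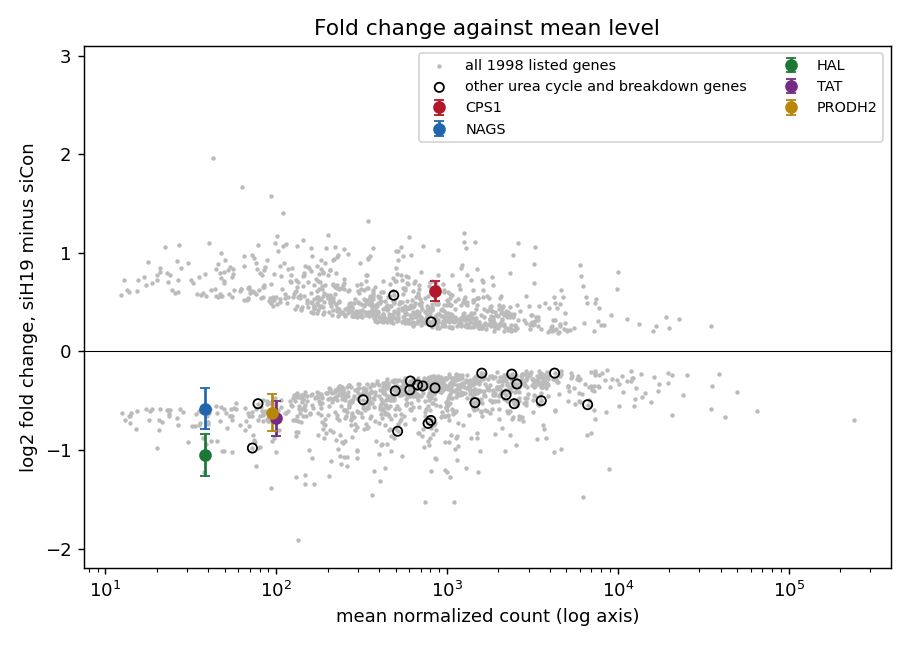
Log2 fold change, siH19 minus siCon (vertical axis), against mean normalized count on a log axis (horizontal axis) for the 1998 genes of the authors' deposited table in grey, with the other listed urea cycle and breakdown genes as open circles and the 5 members in colour with the authors' SE as bars. The empty band around 0 is wider at low counts, where NAGS (-0.58) lies near its edge and HAL (-1.05) well beyond it.

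Other genes of the urea cycle and its nitrogen supply were lower where they were listed, although SLC25A13 turned to 0.05 when centred on the median of all listed genes. Of 16 symbols 4 had a row, 1 higher and 3 lower, a count that includes the members CPS1 and NAGS. The median log2 fold change of these 4 was -0.38. Across all listed genes 55.3% were lower, with a median of -0.27. GLUD1, which releases ammonia from glutamate in mitochondria, stood at -0.54 ± 0.08 (SE) in the authors' deposited table, with normalized counts of 5405 in siH19 cells and 7913 in siCon cells. The authors' deposited table gave -0.22 ± 0.08 for SLC25A13, a mitochondrial carrier that exports aspartate for the cycle, with an adjusted p of 0.0434. CPS1 was the listed member of this group that rose. The cycle enzymes OTC, ASS1, ASL and ARG1 had no row here, which does not show that they were unchanged.

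Around HAL no other enzyme of the same route had a row, and around TAT the others went in both directions. HAL was the 1 gene of 5 histidine symbols with a row. For phenylalanine and tyrosine 4 of 10 symbols had a row, 3 of them lower, with a median of -0.43. That count includes TAT itself. Across all listed genes 55.3% were lower, with a median of -0.27. HPD, which takes up the product of TAT, was at -0.50 ± 0.09 in the authors' deposited table. QDPR, which regenerates the cofactor tetrahydrobiopterin, was higher at 0.57 ± 0.15 in the authors' deposited table, with an adjusted p of 0.00269. FAHD1, at -0.37 in the authors' deposited table, is related in sequence to the last enzyme of tyrosine breakdown but is not known as a step of it.

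The hydroxyproline and glyoxylate genes AGXT and ALDH4A1 were lower, as was PRODH2. In the proline, hydroxyproline, ornithine and glyoxylate list all 4 genes with a row, of 13 symbols, were lower, with a median of -0.68. That count includes PRODH2 itself. Across all listed genes 55.3% were lower, with a median of -0.27, and ALDH18A1 turned to 0.05 when centred on that median. AGXT, the liver enzyme that turns glyoxylate into glycine, had normalized counts of 48.8 in siH19 cells and 96.3 in siCon cells, a log2 fold change of -0.98 ± 0.19 (SE) in the authors' deposited table with an adjusted p of 7.00e-06. ALDH4A1, which carries out the step after PRODH2 and also serves proline breakdown, was at -0.73 ± 0.12 in the authors' deposited table. ALDH18A1, at -0.22 ± 0.07 in the authors' deposited table, belongs to proline synthesis and not to breakdown.

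Branched-chain amino acid genes were lower in all 9 of 9 listed cases, out of 27 symbols, with a median of -0.40. Across all listed genes 55.3% were lower, with a median of -0.27. ACAT1 turned to 0.04 when centred on that median. The authors' deposited table ran from -0.81 ± 0.13 for ALDH6A1, which acts in valine breakdown, to -0.23 ± 0.08 for ACAT1, a thiolase of isoleucine and ketone metabolism. ACADSB, an acyl-CoA dehydrogenase of isoleucine breakdown, stood at -0.53 ± 0.10 in the authors' deposited table. HIBADH (-0.52), AUH (-0.39), MCCC2 (-0.33) and MUT (-0.30) are further steps of these routes, and ABAT (-0.44) is best known for breaking down the transmitter GABA, in the authors' deposited table. BCKDK, which switches off the branched-chain keto acid dehydrogenase, was also lower, at -0.40 ± 0.11 in the authors' deposited table.

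Tryptophan genes with a row were both lower, 2 of 12 symbols. The share of lower genes across all listed genes, 55.3%, stands beside this count and that of the next list. KYNU, a hydrolase of the kynurenine route, was at -0.70 ± 0.11 and QPRT, which leads from that route to NAD, at -0.35 ± 0.10 in the authors' deposited table. In the serine, glycine and threonine list 3 of 14 symbols had a row, all lower, with DMGDH at -0.53 ± 0.19, SARDH at -0.49 ± 0.15 and SHMT1 at -0.34 ± 0.11 in the authors' deposited table. CBS, the entry to cysteine formation from homocysteine, was higher at 0.30 ± 0.09 in the authors' deposited table and was the 1 gene with a row of 9 cysteine and taurine symbols. No symbol of the lysine list (5 symbols) or of the general transaminases (6 symbols) had a row here.

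Together the urea cycle and breakdown lists held 117 symbols, of which 28 had a row, 25 lower and 3 higher, with a median log2 fold change of -0.46. The lower genes included ALDH18A1, FAHD1 and BCKDK, which as described above are not themselves known steps of breakdown. Without the 5 members, which was added after the data were seen, 21 were lower and 2 higher. Among the other 1970 listed genes 54.8% were lower, with a median of -0.27. When fold changes were centred on the median of all listed genes, which is -0.27, 22 of the 28 were still lower, and SLC25A13, ACAT1 and ALDH18A1 turned to between 0.04 and 0.05. The lists were chosen with earlier results known, and genes not called have no row, so these counts describe direction among called genes.

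**Figure D3:**
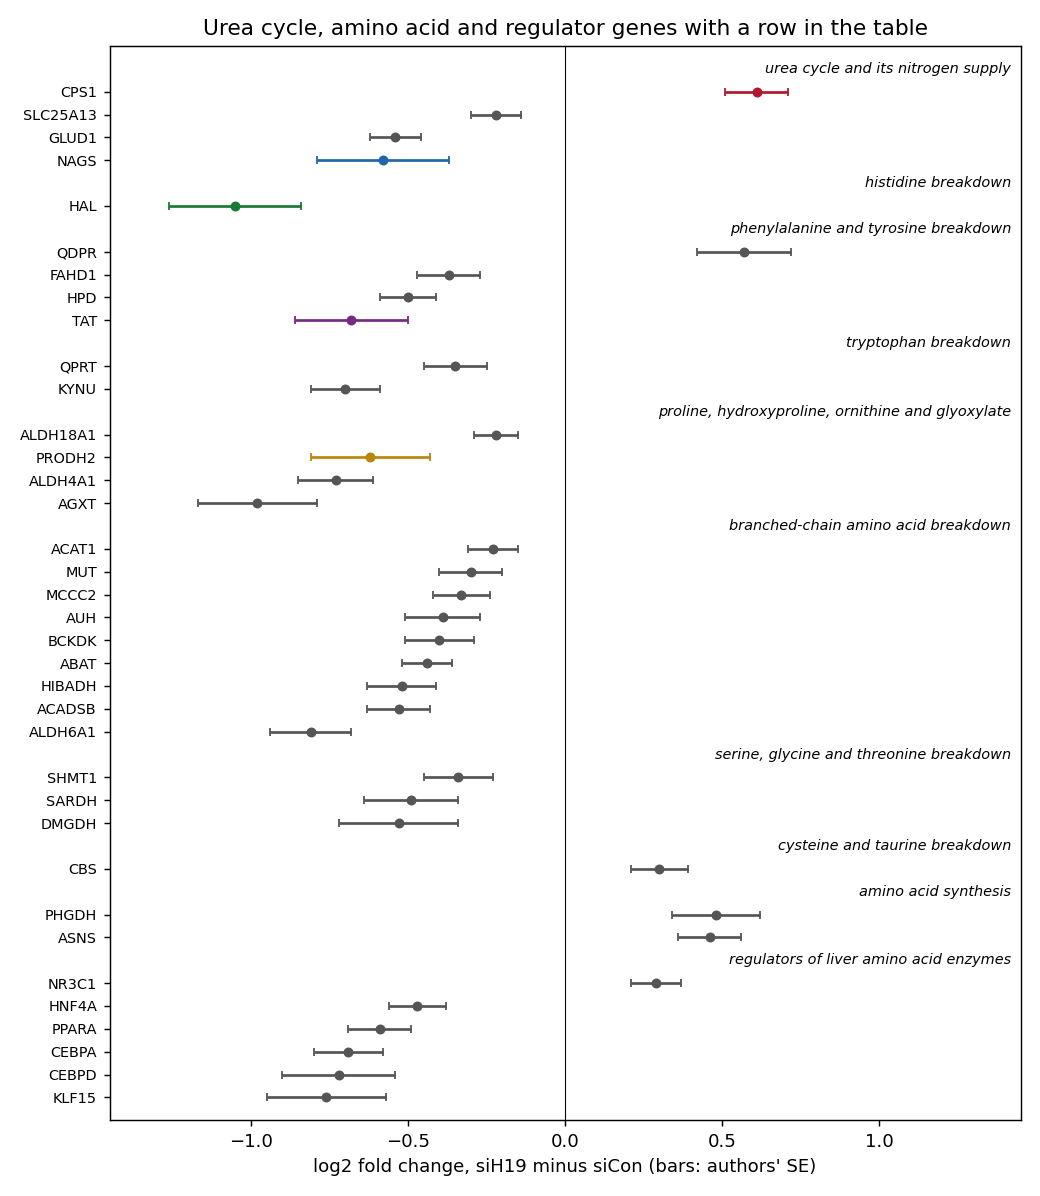
Log2 fold change, siH19 minus siCon (horizontal axis), of each urea cycle, amino acid and regulator gene with a row in the authors' deposited table (vertical axis, grouped by list), with the authors' SE as bars and the 5 members in colour. Of the 28 genes in the urea cycle and breakdown lists 25 lie left of 0 (22 after centring on the median of all listed genes), and CPS1, QDPR and CBS lie right of it, while ALDH18A1 is drawn once, in the proline list.

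Regulators known to act on these enzymes in liver were mostly lower. Of 22 symbols 6 had a row, 5 lower and 1 higher, with a median of -0.64. Of all listed genes 55.3% were lower, with a median of -0.27. KLF15, a transcription factor that promotes amino acid breakdown in mouse liver, had normalized counts of 51.3 in siH19 cells and 86.8 in siCon cells, a log2 fold change of -0.76 ± 0.19 (SE) in the authors' deposited table. CEBPA and CEBPD, factors that bind C/EBP sites, stood at -0.69 ± 0.11 and -0.72 ± 0.18, and PPARA, a nuclear receptor of fasting, at -0.59 ± 0.10 in the authors' deposited table. HNF4A, a factor that maintains hepatocyte genes, was at -0.47 ± 0.09 in the authors' deposited table. NR3C1, the glucocorticoid receptor, through which glucocorticoids induce TAT, was higher at 0.29 ± 0.08 in the authors' deposited table, with an adjusted p of 0.004.

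Hepatocyte markers moved in the direction of the 4 genes that fell. Of 8 markers 7 had a row, all lower, from -0.88 to -0.33, against 55.3% lower among all listed genes. The summed normalized count of those 7 in the authors' deposited table was 307231 in siH19 cells and 481140 in siCon cells. APOB alone gave 182812 and 299044 of these sums. Among these markers ALB was at -0.67 ± 0.07 and APOB at -0.70 ± 0.09 in the authors' deposited table, close to the values of TAT and PRODH2. AFP, at -0.35 ± 0.07, and APOA1, at -0.33 ± 0.10, fell less there. Bile duct and progenitor markers with a row (2 of 6, SPP1 and CD24) were both higher, while 893 of all 1998 listed genes were higher. The sums of SPP1 and CD24 were 10587 in siH19 cells and 6883 in siCon cells in the authors' deposited table. SPP1 alone gave 8841 and 6123 of these sums. Of the stellate markers 1 of 5 (ACTA2) had a row, with 484 in siH19 cells and 861 in siCon cells, of the endothelial markers 1 of 4 (LYVE1), with 52.7 in siH19 cells and 105 in siCon cells, and of the blood markers 2 of 4 (CD68 and LYZ), with 16759 in siH19 cells and 26484 in siCon cells, all lower in the authors' deposited table. LYZ alone gave 16271 and 25355 of the blood sums. The table gives no genes at 0, the cells were 1 line, and the part of these markers in the results on the 5 genes was not tested. In bulk RNA, fewer cells with a transcript and less of it per cell cannot be told apart.

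Gene models bear on which reads a count can hold. In GENCODE release 29 TAT, on chromosome 16, is overlapped on the opposite strand by TAT-AS1 over 11342 of its 11471 bases. CPS1, on chromosome 2, holds CPS1-IT1 (2306 bases) on the same strand, and 29 bases lie between its first annotated base and that of LANCL1 on the opposite strand. NAGS on chromosome 17 lies 76 bases from PYY and HAL on chromosome 12 lies 155 bases from an antisense gene, while the nearest neighbour of PRODH2, on chromosome 19, is 2085 bases away. The libraries were strand-specific, per the labels' protocols, but no source used here says whether counting used the strand, so reads of TAT and TAT-AS1 may not be separated. None of these neighbours had a row here.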

How the data were processed

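RNA from 6 HepG2 libraries (3 siH19, 3 siCon) was depleted of ribosomal RNA and read from both ends in 76 cycles, per the labels' protocols. Build hg19 and the programs DESeq2 1.0.0, Cufflinks 2.2.1 and STAR 2.5.0a come from the submitters' processing notes. Their roles, the annotation and the use of strand are not given in the sources used here. Per the file headers, 1 table deposited by the authors gives a log2 count for each group, a mean count, a log2 fold change with its SE, and a q value. The mean count column that the authors deposited holds a normalized signal, with values that are not whole reads. The q value deposited by the authors, an adjusted p-value, was at most 0.0498. Columns outside the series numbered 0, library totals were not given, so the depth is unknown, and whether fold changes were shrunken is not stated. Deposited fold changes equalled the difference of group values within 0.01.

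Computed here, with Python 3.11.15 and pandas 2.3.3, were linear values, ranks, differences between genes, list counts and medians, levels per coding kilobase, and motif matches (search checked on sequences with planted motifs). No test of single genes was added. Fold changes, SEs and adjusted p are the authors'. The design had foreseen a reference protein for lengths, and GENCODE release 29 coding sequences (GRCh38) were used in its place, with no gene coordinates printed. Named genes were the 5 members, every symbol of 13 lists that the table holds, and cell type markers, and some genes of these lists are not reported here. The members and lists were chosen with earlier results of these data known. Alternatives were another threshold, centring, scaling, a pseudocount of 10, filters on level and size, and transcript length.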

Additional observations from a re-analysis of the deposited data

How the results depend on the processing

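The direction of all 5 genes held under every alternative run, but most of these alternatives could not change a sign. Centring and scaling raise every value, so they could have reversed the falls but not the rise of CPS1. Centring on the median of all listed genes, which is -0.27, gave log2 fold changes of 0.88 for CPS1, -0.31 for NAGS, -0.78 for HAL, -0.41 for TAT and -0.35 for PRODH2. Scaling both groups to the same total over listed genes gave 0.79 for CPS1 and -0.50 for TAT. A pseudocount of 10 gave -0.82 for HAL. At an adjusted p threshold of 0.01 the calls of NAGS (-0.58) and PRODH2 (-0.62) were lost. The differences of CPS1 from the other genes moved by less than their SE, to between 1.07 and 1.67. For the urea cycle and breakdown lists, the count of lower genes was 16 at that threshold and 7 among genes changed at least 1.5-fold, against 25, and the count of higher genes was 1 in that second case and 6 after centring, against 3. By transcript length, in place of coding length and chosen after seeing the data, the level of CPS1 in siH19 cells was 13.0 times that of NAGS, 28.4 times HAL, 9.5 times TAT and 4.1 times PRODH2, and in siCon cells 5.6, 8.9, 3.8 and 1.7 times. Fewer genes entered under each filter, and centring moves small falls past 0.

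No paired analysis was possible because the table holds 1 value per group, and no replicate was left out for the same reason. A median over called genes is not one over all expressed genes. Low counts limit NAGS and HAL most.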

Other observations

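Amino acid synthesis genes with a row included higher members, unlike most of the breakdown lists. Of 8 symbols 3 had a row, 2 higher and 1 lower, while 55.3% of all listed genes were lower. ASNS, which makes asparagine, had normalized counts of 820 in siH19 cells and 596 in siCon cells, a log2 fold change of 0.46 ± 0.10 (SE) in the authors' deposited table. PHGDH, the first enzyme of serine synthesis, had 1010 in siH19 cells and 719 in siCon cells, a log2 fold change of 0.48 ± 0.14 in the authors' deposited table. ALDH18A1, of proline synthesis, was the lower one.

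The promoters of the listed urea cycle and breakdown genes can be set beside those of all listed genes. RefSeq held windows for 25 of the 28 genes, 37 windows in all, and these include the windows of CPS1, NAGS, HAL and PRODH2. The matches of HAL and PRODH2 described above are thus counted here. The 1 window with GTTAATNAT is that of PRODH2. The C/EBP letters TTGCNNAA were in 16.2% of these windows, against 8.27% of 2346 windows of all listed genes and 10.46% of all windows in the table. The glucocorticoid receptor motif TGTTCT was in 21.6%, against 9.89% and 14.79%. The other motifs searched were not all more frequent. TATAAA was in 5.4%, against 7.54% and 11.53%, and GTTAATNAT, of HNF1, in 2.7%, against 0.85% and 0.79%. The cAMP response element TGACGTCA was in 0.0%, against 3.24% and 1.85%, and CAAAGTCCA, of HNF4, in 0.0%, against 0.64% and 0.38%. With at most 8 windows per motif these shares are descriptions, and windows of 1 gene are not independent.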
